A study of Homo sapiens with 18 samples.

Results

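The ER membrane protein complex (EMC) was followed through its 10 subunit genes, EMC1, EMC2, EMC3, EMC4, MMGT1 (which encodes EMC5), EMC6, EMC7, EMC8, EMC9 and EMC10, which were chosen by name among 25435 gene rows. The RNA-Seq data came from HEK293doxERN2 cells, a human embryonic kidney line with a doxycycline-inducible FLAG-ERN2 transgene that all groups carried. Doxycycline was given at 0, 10 or 100 ng/mL for 24 hours, and at each dose cells then received vehicle (DMSO) or thapsigargin (200 nM for 3 hours), which stresses the ER by blocking its calcium pump. Each of the 6 groups had 3 libraries, 18 in all, with 14876416 to 24652240 counted reads. No group received doxycycline without carrying the transgene, so an effect of the drug and an effect of ERN2 cannot be told apart. The sources used here do not say whether the line was cloned, or whether the libraries of a group came from separate cultures, so the p-values measure only the spread between these libraries, which may be technical.

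The EMC is a conserved insertase of the ER membrane. It places tail-anchored proteins and the amino-terminal spans of some multipass proteins, such as G protein-coupled receptors, into the lipid bilayer. EMC3 and EMC6 form the membrane core through which substrates pass, EMC1, EMC7 and EMC10 build most of the part in the ER lumen, EMC4 and EMC5 are further membrane subunits, and EMC2 with either EMC8 or its paralog EMC9 forms the cytosolic part. EMC1, EMC7 and EMC10 are made with a signal peptide, which brings their translating ribosomes to the ER. EMC3, EMC4, EMC5 and EMC6 reach the membrane without a cleaved signal peptide, and EMC2, EMC8 and EMC9 are made in the cytosol. ERN2 encodes IRE1β, an ER stress sensor whose lumenal part is tied through the membrane to a kinase and RNase. RNases of this family splice XBP1 mRNA and can also cut other mRNAs that are translated at the ER. The cuts in XBP1 mRNA lie in the loops of RNA hairpins, and a loop of this kind holds the letters CTGCAG.

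For that reason the coding sequences of the members were searched for CTGCAG on the sense strand. EMC1 held 6 matches, EMC3 and EMC10 held 1 each, and the other 7 members held 0. A match was found in 68.0% of 18356 coding genes, so the hexamer is common, and its density in EMC10 (1.27 per kb of coding sequence) was reached or exceeded by 35.6% of them. The matches that lie within 1 exon are printed in coding orientation with CTGCAG in capitals, since these 3 genes recur in the comparisons that follow. Sequences and positions are from GRCh38 with the GENCODE annotation.
EMC10, exon 5, chr19:50480725-50480754, plus strand: acctcggtgcagCTGCAGccgcccaccaca
EMC3, exon 1, chr3:9986533-9986562, minus strand: gtgtccatcctgCTGCAGagcgacaagaag
EMC1, exon 5, chr1:19242431-19242460, minus strand: gggctggttggcCTGCAGgagtctgtaagg
EMC1, exon 7, chr1:19240408-19240437, minus strand: tcaactccgtggCTGCAGcacctgtctgga
EMC1, exon 8, chr1:19239848-19239877, minus strand: cactatgctctgCTGCAGtaccattatgga
EMC1, exon 9, chr1:19239242-19239271, minus strand: agaagacggtggCTGCAGtcatggcctgtc
None of these matches sat in a hairpin of the XBP1 kind, defined as a loop of 7 bases, CNGCAGN, closed by a stem of 4 base pairs. Among the members only EMC9 held such a hairpin, as did 8.13% of coding genes. The matches are a description of letters and not of cleavage.

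The labels were checked on the transgene and on marker genes. ERN2 lay between 6.57 and 9.10 CPM (read counts after TMM scaling for library size) in the 3 libraries without doxycycline under vehicle, between 22.5 and 55.9 at 10 ng/mL and between 249 and 309 at 100 ng/mL. Under thapsigargin the ranges were 10.4 to 14.2, 32.1 to 112 and 175 to 272 CPM, and the thapsigargin-induced genes ATF3, DDIT3 and HSPA5 rose at each dose (3 of 3). The labels' extraction text names colon crypt epithelial cells. All 7 markers of HEK293 cells exceeded 1 CPM in each library, with a summed level of 2029 to 3563 CPM. The 10 markers of colon crypts summed to 21.0 to 59.1 CPM. Of these, 7 (CDX1, VIL1, CDH17, MUC2, KRT20, CA1 and SLC26A3) had 5 or fewer reads in every library. The other 3, CDX2, LGR5 and EPCAM, exceeded 1 CPM in each library. In bulk RNA, fewer cells that express a gene and less of its RNA per cell cannot be told apart. Of the libraries, thapsigargin replicate 1 at 100 ng/mL lay farthest from its group, and each result that turns on it is given with and without it.

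All 10 members passed the filter on low counts in each comparison, with 148 to 4424 reads per library. The plot of member levels by library shows the lumenal subunit EMC10 apart from the rest.

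**Figure D1:**
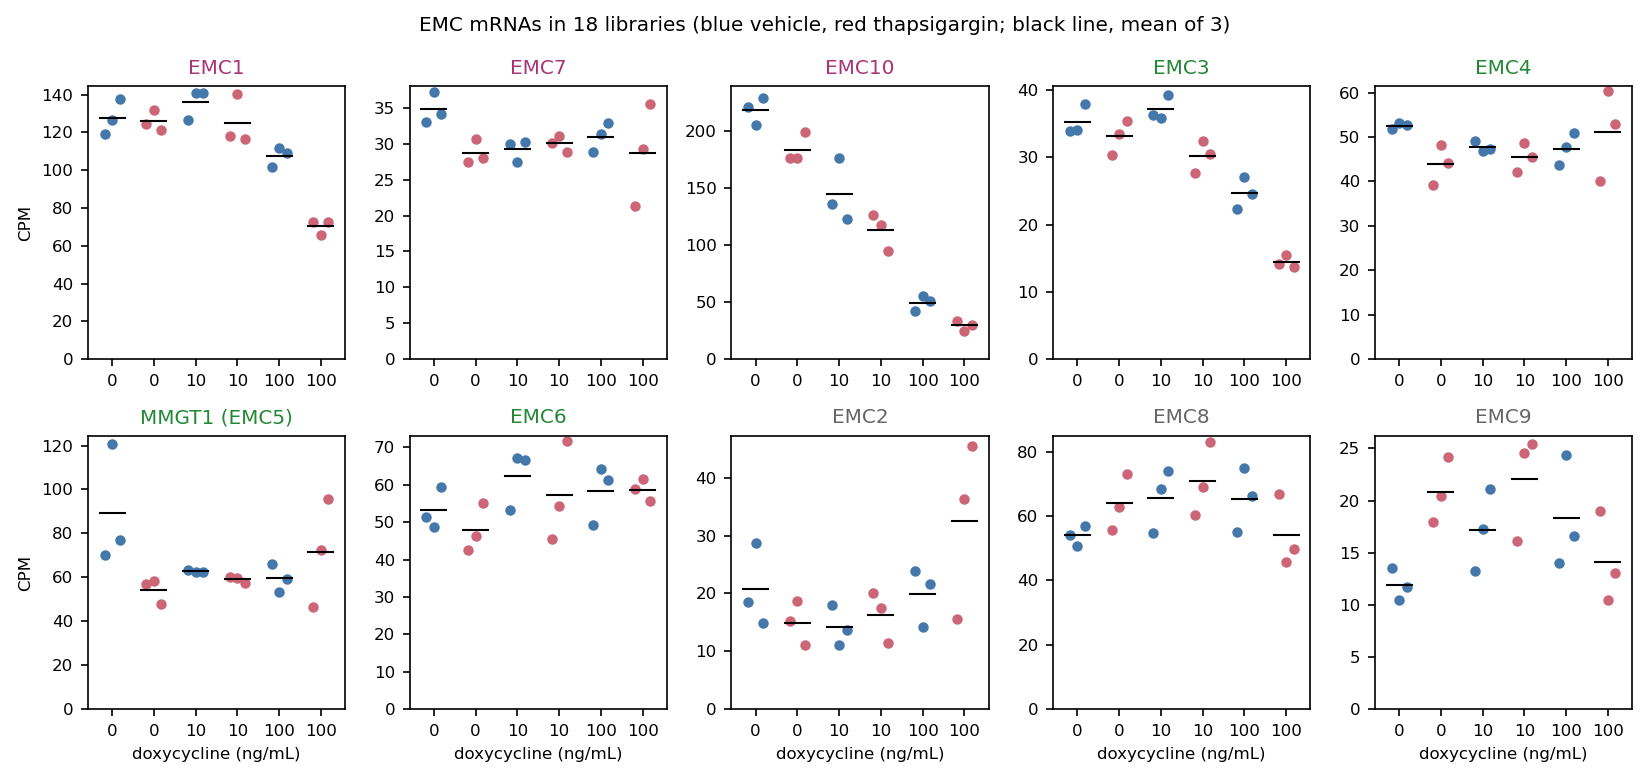
TMM-scaled CPM of the 10 EMC mRNAs (vertical axes, from 0) against doxycycline dose, 1 point per library (3 per group; blue vehicle, red thapsigargin) with black lines at group means and titles coloured by class (purple signal peptide, green membrane, grey cytosolic). EMC10 falls from 205 to 229 CPM without doxycycline to 42.5 to 55.1 at 100 ng/mL under vehicle, while the group means of EMC4, EMC6 and EMC7 differ by at most 1.30-fold.

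EMC10 mRNA was lower at the higher dose of doxycycline, by 4.54-fold under vehicle and by 6.19-fold under thapsigargin, and no other member approached this span. Under vehicle it measured 221, 205 and 229 CPM without doxycycline, 136, 176 and 123 CPM at 10 ng/mL, and 42.5, 55.1 and 51.1 CPM at 100 ng/mL. Under thapsigargin it measured 176, 176 and 199 CPM, then 126, 118 and 95.2 CPM, and then 33.9, 24.7 and 30.4 CPM. Every library at 100 ng/mL lay below every library at 10 or 0 ng/mL. In the order of group means, from vehicle without doxycycline to thapsigargin at 100 ng/mL, the neighbours that overlapped were thapsigargin without doxycycline with vehicle at 10 ng/mL, and the latter with thapsigargin at 10 ng/mL. The highest group mean exceeded the lowest by 7.37-fold for EMC10, by 2.57-fold for EMC3, by 2.28-fold for EMC2, by 1.93-fold for EMC1 and by 1.20- to 1.85-fold for the other 6 members.

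In cells at 100 against 0 ng/mL under vehicle, EMC10 was the member that passed the test, and it fell by 2.18 on the log2 scale (SE 0.12, edgeR adjusted p = 2.62e-07). Members that passed numbered 1 of 10, beside 8.33% of 14444 genes. 1 of 10 was lower, beside 7.49%, and 0 of 10 were higher, beside 0.838%. EMC10 stood at percentile 0.301 of all genes tested, counted from the lowest log2 fold change. The next members in size did not pass. MMGT1, the small membrane subunit EMC5, had a log2 fold change of -0.63 (SE 0.18, adjusted p = 0.035), EMC3 of -0.56 (SE 0.13, adjusted p = 0.0105) and EMC9 of 0.58 (SE 0.20, adjusted p = 0.0773). The values of EMC1, EMC2, EMC4, EMC6, EMC7 and EMC8 ran from -0.29 to 0.24. The median of the 10 members was -0.20, beside -0.01 over all genes. Libraries of both groups did not overlap for 7 members, 6 of them lower and 1 higher with doxycycline, beside 35.8% of all genes. EMC3 lay close to the threshold and passed it under 5 of 13 alternatives, in fits that called 7.36% to 14.9% of all genes. These were DESeq2, no filter on low counts, a fit of all 6 groups and removal of the trend on GC content and length. It also passed (adjusted p = 0.00194) when vehicle replicate 2 at 100 ng/mL was left out. MMGT1 passed under 2 of 13, DESeq2 and no filter.

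**Figure D2:**
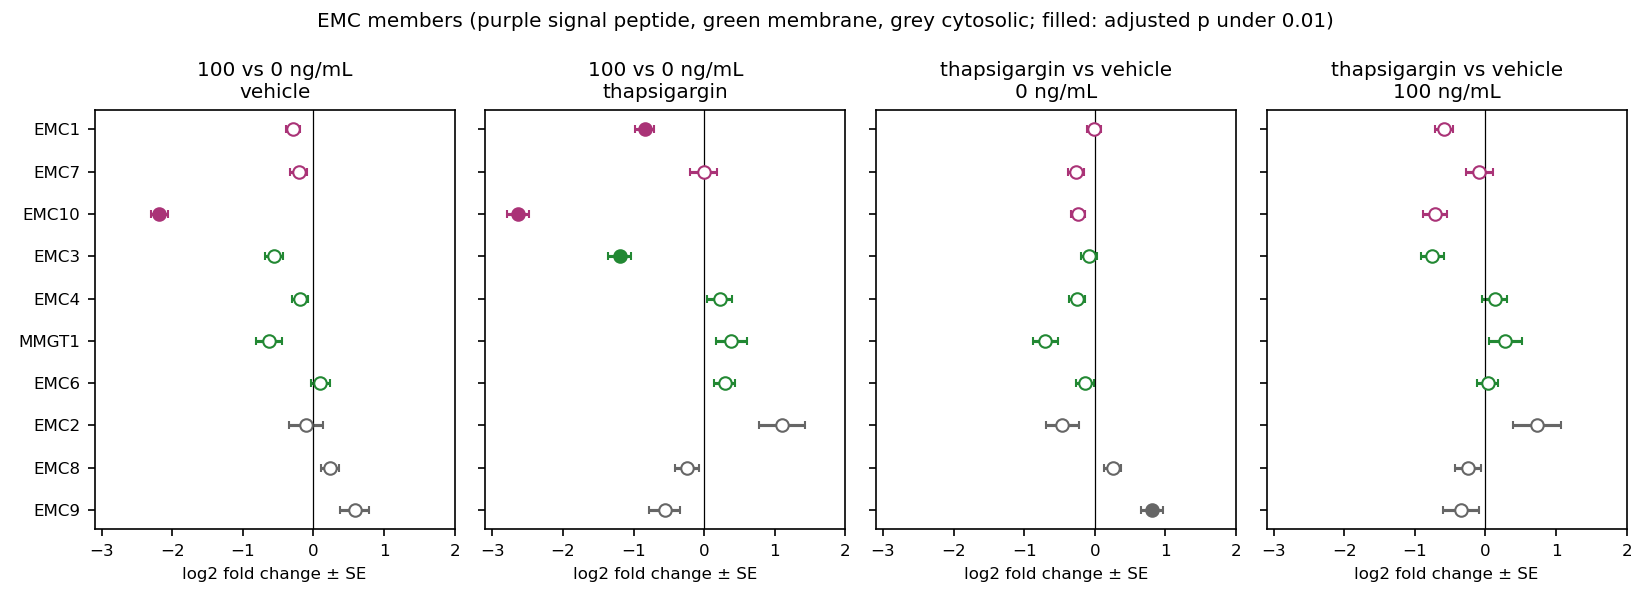
Log2 fold change with its SE (horizontal axes) of each member in 4 comparisons of 3 libraries with 3, edgeR, filled where the adjusted p was under 0.01. EMC10 is far to the left in both comparisons of 100 with 0 ng/mL, EMC1 and EMC3 join it under thapsigargin, and EMC9 is the filled member for thapsigargin without doxycycline.

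The step from 10 to 100 ng/mL under vehicle shares its upper group with the comparison above. EMC10 fell by 1.57 on the log2 scale (SE 0.16, adjusted p = 0.00208), which made 1 of 10 members changed, beside 2.45% of 14549 genes, and 1 lower, beside 2.43%. The call was lost without vehicle replicate 3 at 100 ng/mL (log2 fold change -1.61, adjusted p = 0.0248), a fit in which 0 genes passed. EMC3 had a log2 fold change of -0.62 (SE 0.12, adjusted p = 0.0164) and EMC1 of -0.37 (SE 0.10, adjusted p = 0.0672), while the other 7 members ran from -0.12 to 0.45. Libraries did not overlap for 3 members, all lower at 100 ng/mL, beside 22.9% of genes. From 0 to 10 ng/mL 0 of 10 members passed, beside 0.193% of 14497 genes. 4 members had an unadjusted p under 0.05 there, a cutoff at which the share of all genes was not counted, here or below. DESeq2 called 1 (EMC10), beside 2.63% of genes. Without vehicle replicate 1 at 10 ng/mL EMC10 (adjusted p = 0.00441) and EMC9 (adjusted p = 0.00523) passed, in a fit that called 18.8% of all genes. The EMC10 log2 fold change at this lower dose was -0.60 (SE 0.13, adjusted p = 0.0539). Libraries did not overlap for 4 members, all lower with doxycycline, beside 29.8% of genes.

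Under thapsigargin, 100 against 0 ng/mL, 3 members were lower. All 3 are inserted into or moved across the ER membrane, as is every member but EMC2, EMC8 and EMC9. The other members of this kind, EMC4, MMGT1, EMC6 and EMC7, did not pass, with log2 fold changes from -0.004 to 0.39. EMC10 fell by 2.63 on the log2 scale (SE 0.16, adjusted p = 7.64e-07), the insertase core subunit EMC3 by 1.20 (SE 0.16, adjusted p = 0.000229) and EMC1, the large lumenal subunit, by 0.84 (SE 0.14, adjusted p = 0.000794). This was 3 of 10 members, beside 10.5% of 14358 genes that changed. 9.00% of genes were lower, and 0 of 10 members were higher, beside 1.53%. Libraries did not overlap for 4 members, 3 lower and 1 (EMC6) higher, beside 36.5% of genes. These 3 members are also the ones with CTGCAG in their coding sequence, which 68.0% of coding genes hold. None of the 3 held a hairpin of the XBP1 kind, and a link between the hexamer and the falls was not tested. The median over the members was -0.12, beside 0.04 over all genes. Without thapsigargin replicate 1 at 100 ng/mL 6 members passed, with EMC2 and MMGT1 higher and EMC9 lower besides these 3, in a fit that called 27.2% of all genes.

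EMC3 measured 30.3, 33.5 and 35.5 CPM without doxycycline under thapsigargin and 14.1, 15.5 and 13.7 CPM at 100 ng/mL. Under vehicle the same doses gave 33.9, 34.1 and 37.9 CPM and 22.4, 27.0 and 24.6 CPM. For EMC3, libraries at 100 ng/mL lay below those at lower doses, and those with thapsigargin lay lowest. EMC1 measured 125, 132 and 122 CPM without doxycycline under thapsigargin and 72.8, 65.8 and 72.4 CPM at 100 ng/mL, against 119, 127 and 137 CPM and 102, 112 and 109 CPM under vehicle. For both genes the 4 groups at 0 and 10 ng/mL overlapped with their neighbours in level, and the groups at 100 ng/mL stood apart below them. The EMC1 call was lost without thapsigargin replicate 2 at 100 ng/mL (adjusted p = 0.0111), whereas those of EMC10 and EMC3 held without any one library.

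At 10 against 0 ng/mL under thapsigargin, 0 of 10 members and 0% of 14509 genes passed the edgeR test. EMC10 had a log2 fold change of -0.71 (SE 0.13, adjusted p = 0.292), and it was the only member with an unadjusted p under 0.05. Its 3 libraries at 10 ng/mL lay below the 3 without doxycycline, as did the libraries of 1 group against the other for 10.0% of genes. In this comparison same-numbered libraries deviated together, and with the replicate number as a block EMC10 passed (log2 fold change -0.72, SE 0.08, adjusted p = 5.01e-06), 1 of 10 members among 564 genes called. DESeq2 called EMC10 among 39 genes.

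The response to thapsigargin itself was small for most members. Without doxycycline EMC9, the cytosolic paralog of EMC8, was higher by 0.81 on the log2 scale (SE 0.15, adjusted p = 0.00253). It measured 13.6, 10.5 and 11.7 CPM under vehicle and 17.9, 20.4 and 24.1 CPM under thapsigargin, so that the groups did not overlap. This was 1 of 10 members changed, beside 11.2% of 14397 genes. 1 was higher, beside 6.45%, and 0 were lower, beside 4.74%. Libraries did not overlap for 5 members, 1 higher and 4 lower with thapsigargin, beside 40% of genes. EMC8 had a log2 fold change of 0.25 (SE 0.12, adjusted p = 0.155), and the ratio of EMC9 to EMC8 counts was 0.221 ± 0.025 under vehicle and 0.326 ± 0.004 under thapsigargin (SD, n = 3). MMGT1 fell short of the threshold, with a log2 fold change of -0.70 (SE 0.18, adjusted p = 0.0128). It measured 70.1, 121 and 77.0 CPM under vehicle and 57.1, 58.4 and 47.8 CPM under thapsigargin. With the replicate number as a block MMGT1 and EMC2 passed besides EMC9, in a fit that called 24.8% of all genes. There r between same-numbered libraries was 0.083, 0.201 and 0.274. EMC9 did not pass in a fit of all 6 groups (adjusted p = 0.0339), in which the spread is shared with the other groups.

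At 10 ng/mL 0 of 10 members responded to thapsigargin, beside 1.45% of 14607 genes. 2 members had an unadjusted p under 0.05 (EMC3 and EMC10), and DESeq2 called 0, beside 7.54% of genes. Libraries did not overlap for 2 members, both lower, beside 28.5% of genes. At 100 ng/mL edgeR called 0 of 10, beside 0.201% of 14427 genes, with 3 members at an unadjusted p under 0.05. DESeq2 called 3, beside 5.07% of genes. Libraries did not overlap for 3 members, all lower, beside 25.8% of genes. The log2 fold changes there were -0.75 for EMC3 (SE 0.16, adjusted p = 0.0356), -0.59 for EMC1 (SE 0.13, adjusted p = 0.0384) and -0.72 for EMC10 (SE 0.17, adjusted p = 0.0482). Without thapsigargin replicate 1 at 100 ng/mL, 4 members passed, EMC1, EMC3 and EMC10 lower and EMC2 higher, in a fit that called 17.6% of all genes. With the trend on GC content and length removed and all libraries kept, EMC1 and EMC3 passed and EMC2 did not. That fit called 5.79% of all genes.

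Whether the response to thapsigargin changed with doxycycline was tested as an interaction over 12 libraries. At 10 ng/mL 0 of 10 members and 0% of 14857 genes passed, with 1 member (MMGT1) at an unadjusted p under 0.05, and DESeq2 also called 0 members. At 100 ng/mL 0 of 10 members passed, beside 0.0406% of 14768 genes. The smallest adjusted p was that of EMC1 (difference of log2 fold changes -0.50, SE 0.14, adjusted p = 0.0824), followed by EMC9 (-1.08, SE 0.31, adjusted p = 0.0849) and EMC3 (-0.58, SE 0.17, adjusted p = 0.0873). 7 members had an unadjusted p under 0.05, and without the share of all genes at that cutoff this count cannot be judged. DESeq2 called 1 member, EMC1, beside 2.31% of genes. Without thapsigargin replicate 1 at 100 ng/mL, EMC2, MMGT1 and EMC9 passed, in a fit that called 8.60% of all genes. With the trend on GC content and length removed and all libraries kept, 0 members passed. That EMC1 and EMC3 passed for doxycycline under thapsigargin and not under vehicle therefore does not show that the 2 conditions differed for them.

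The subunits made with a signal peptide and the cytosolic ones came closer in level at 100 ng/mL, by more with EMC10 counted than without it. The mean log2 CPM of EMC1, EMC7 and EMC10 exceeded that of EMC2, EMC8 and EMC9 by 2.08 ± 0.14 (SD, n = 3) without doxycycline under vehicle, by 1.73 ± 0.18 at 10 ng/mL and by 0.95 ± 0.03 at 100 ng/mL. Under thapsigargin the difference was 1.70 ± 0.07, 1.37 ± 0.13 and 0.47 ± 0.01. At both treatments each library at 100 ng/mL lay below each library at lower doses. With EMC10 left out of the signal-peptide class, the difference was 1.51 ± 0.14, 1.34 ± 0.09 and 1.03 ± 0.03 under vehicle and 1.16 ± 0.07, 1.08 ± 0.07 and 0.67 ± 0.12 under thapsigargin. EMC10 accounted for 31.4% ± 2.4 of the counts on the 10 members without doxycycline under vehicle, for 23.4% ± 3.5 at 10 ng/mL and for 10.3% ± 0.7 at 100 ng/mL. The scale of these means is log2 CPM, which does not correct for gene length, so the size of the difference describes reads. Its change draws on both classes. From 0 to 100 ng/mL under vehicle the signal-peptide mean went from 6.63 ± 0.05 to 5.78 ± 0.11 and the cytosolic mean from 4.55 ± 0.10 to 4.82 ± 0.09. Under thapsigargin they went from 6.45 ± 0.04 to 5.28 ± 0.13 and from 4.75 ± 0.11 to 4.81 ± 0.13. The cytosolic members also varied with the base composition of the libraries, described below, and its part in the change was not tested.

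**Figure D3:**
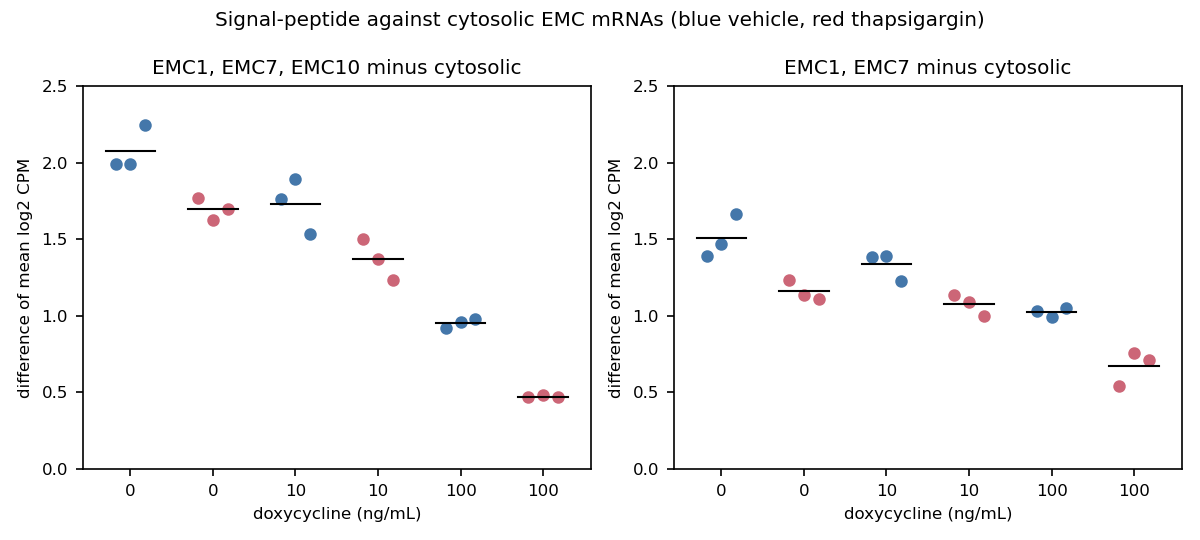
Mean log2 CPM of signal-peptide subunits minus that of the cytosolic subunits EMC2, EMC8 and EMC9 (vertical axes), by doxycycline dose, with EMC10 (left) and without it (right), 1 point per library and a line at the mean of 3. With EMC10 the group means run from 2.08 down to 0.47 and without it from 1.51 down to 0.67.

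The members of the signal-peptide class differed in size. EMC7, the other small lumenal subunit with a signal peptide, measured 33.1, 37.2 and 34.1 CPM without doxycycline and 28.8, 31.3 and 32.8 CPM at 100 ng/mL under vehicle, and these groups did not overlap, as for EMC1 and EMC10. Its log2 fold change was -0.21 (SE 0.12, adjusted p = 0.272) under vehicle and 0.00 (SE 0.19, adjusted p = 0.992) under thapsigargin. Set beside the 3 called members, EMC7 has a signal peptide and holds no CTGCAG in its coding sequence, and EMC3 has the hexamer and no cleaved signal peptide. Whether either trait bears on the falls was not tested.

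The members were therefore placed among all coding genes by a measure of the encoded amino terminus, the highest mean Kyte-Doolittle hydrophobicity over 12 residues within residues 1 to 40. EMC3 (3.12), EMC10 (2.73), EMC7 (2.48), MMGT1 (2.03) and EMC1 (2.01) lay at or above a boundary of 2.0, which 22.8% of coding genes reach. EMC9 (1.27), EMC8 (1.01), EMC6 (0.725), EMC2 (0.108) and EMC4 (0.083) lay below it. For 100 against 0 ng/mL under vehicle, the 2032 genes at or above the boundary had a median log2 fold change of -0.47 and 31.7% were called lower, and the 10726 genes below it had 0.02 and 3.62%. Under thapsigargin the medians were -0.72 and 0.10, with 36.5% and 4.66% called lower. Among the genes with a hydrophobic amino terminus, EMC10 stood at percentile 1.72 from the lowest under vehicle and 1.25 under thapsigargin, and EMC7 at percentile 65.4 and 82.0. EMC10 was thus far down a class whose median lay below 0, and EMC7 lay in its upper part.

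**Figure D4:**
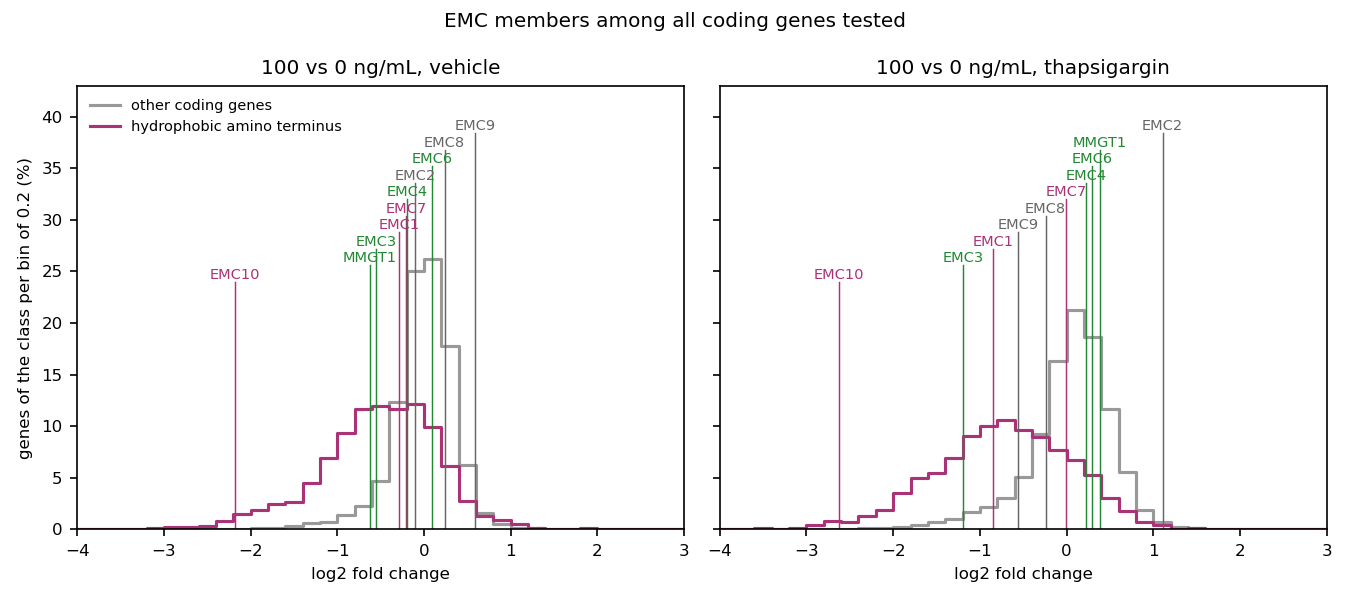
Share of coding genes per bin of 0.2 (vertical axis, percent of each class) by log2 fold change at 100 against 0 ng/mL (horizontal axis), for genes with a hydrophobic amino terminus (purple) and other coding genes (grey), with vertical lines at the 10 EMC members, coloured by class. The purple medians are -0.47 under vehicle and -0.72 under thapsigargin, and EMC10 lies in the far left tail of both.

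Within the class with a hydrophobic amino terminus, the 1449 genes with CTGCAG had a median of -0.53 under vehicle and 35.6% were called lower, and the 583 genes without it had -0.34 and 22.1%. Under thapsigargin these values were -0.83 and 41.3%, and -0.44 and 24.7%. EMC1, EMC3 and EMC10 belong to the group with the hexamer, and EMC7 and MMGT1 to the group without. Below the boundary, 4.090% of the 7531 genes with the hexamer were called lower under vehicle, and 2.504% of the 3195 without it. Under thapsigargin these shares were 5.56% and 2.55%. The medians below the boundary were 0.028 and 0.003 under vehicle, and 0.045 and 0.22 under thapsigargin. The difference in genes called lower was thus not confined to the class with a hydrophobic amino terminus. Coding length, on which the chance of holding 6 given letters depends, was not matched between these groups, and its part was not tested.

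The base composition of the libraries also varied, and the members differ in their own. The transcripts of EMC2 (37.9% GC) and MMGT1 (39.2%) are the members' poorest in G and C, and that of EMC9 (62.0%) is the richest. For each library, a GC contrast was computed as the deviation from the mean of 18 libraries of genes of high GC content (above 57.5%) minus that of genes of low GC content (below 42.7%). It ran from -0.92 to 0.68 on the log2 scale, and was lowest in thapsigargin replicates 3 and 2 at 100 ng/mL. These are the libraries of that group that remain when replicate 1 is left out. Over the 18 libraries Pearson's r of a member's log2 CPM with this contrast, given as a description, was -0.91 for EMC2, 0.85 for EMC8, 0.69 for EMC9 and -0.62 for MMGT1. It was 0.56 for EMC1, 0.56 for EMC3, 0.52 for EMC6, 0.35 for EMC10, -0.38 for EMC7 and -0.42 for EMC4. EMC2 measured 15.6, 36.3 and 45.5 CPM under thapsigargin at 100 ng/mL, where the GC contrast was 0.12, -0.64 and -0.92, against 15.2, 18.6 and 11.1 CPM without doxycycline. Its log2 fold change between these groups was 1.11 (SE 0.33, adjusted p = 0.0305). It was 0.59 (SE 0.20, adjusted p = 0.0344) with the trend on GC content and length removed, and 1.46 (SE 0.19, adjusted p = 7.25e-06) without replicate 1 of the treated group. Between these groups MMGT1 and EMC9 also passed without that replicate, and not with the trend removed and all libraries kept. With the trend removed, EMC9 kept its rise with thapsigargin in uninduced cells (log2 fold change 0.90, SE 0.11, adjusted p = 8.3e-05). That fit, which called 19.6% of all genes, also called MMGT1 (-0.60, adjusted p = 0.00117) and EMC10 (-0.33, adjusted p = 0.0026) lower. EMC10 kept its fall with 100 ng/mL under vehicle (-2.21, SE 0.08, adjusted p = 4.22e-10) and under thapsigargin (-2.37, SE 0.11, adjusted p = 6.54e-09). At 10 against 0 ng/mL under vehicle it passed with the trend removed (-0.74, adjusted p = 0.00426), beside 0.759% of genes.

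**Figure D5:**
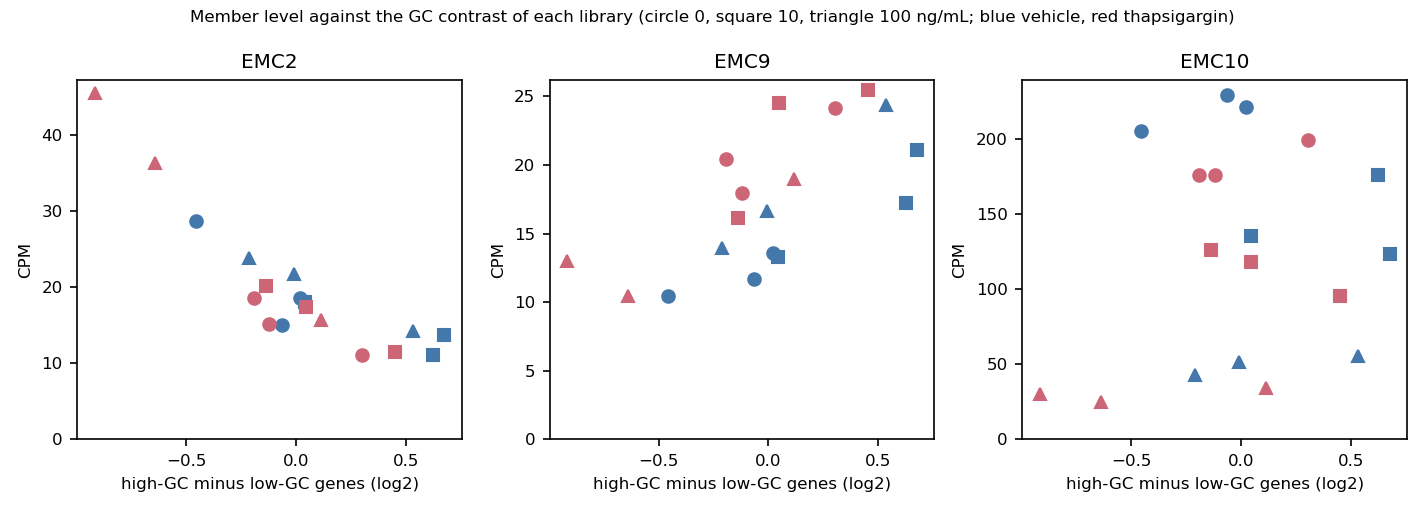
CPM of EMC2, EMC9 and EMC10 (vertical axes, from 0) against the GC contrast of each of the 18 libraries (horizontal axes, log2; circles 0, squares 10 and triangles 100 ng/mL; blue vehicle, red thapsigargin). EMC2 is highest, at 36.3 and 45.5 CPM, in the libraries with the lowest contrasts of -0.64 and -0.92, whereas EMC10 is at 24.7 to 55.1 CPM in the 6 libraries at 100 ng/mL, over contrasts from -0.92 to 0.53.

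Over the 18 libraries the log2 CPM of the members fell into different patterns, given here as a description, since the libraries share dose, treatment and base composition. Pearson's r was 0.964 between EMC1 and EMC3, 0.902 between EMC3 and EMC10 and 0.867 between EMC1 and EMC10. It was 0.908 between the paralogs EMC8 and EMC9. Among 15009 genes the profile of EMC10 was most like those of ERGIC1 (r = 0.996), ITFG3 (0.994) and APP (0.994), which encode membrane proteins of the secretory pathway. The profile of EMC2 was most like those of CTNNAL1 (0.975), DNAJB4 (0.974) and AP1G1 (0.969). The mean profile of the 10 members was most like those of HS6ST2 (0.952), PCDH7 (0.943) and LRP11 (0.940).

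Other routes of membrane insertion were described from lists written from general knowledge. The GET pathway inserts tail-anchored proteins after translation, and 0 of its 7 genes passed for doxycycline at either treatment at 100 ng/mL. Of all genes 8.33% passed under vehicle and 10.5% under thapsigargin, so 0 of 7 does not set the list apart. Its medians were 0.15 under vehicle and -0.06 under thapsigargin. WRB, the GET1 receptor subunit, fell with thapsigargin in uninduced cells by 0.69 on the log2 scale (SE 0.13, adjusted p = 0.00256). It was 1 of 7 lower, beside 4.74% of all genes. Of the 9 genes of the multipass translocon, which acts on proteins with several spans, 2 were lower at 100 ng/mL under vehicle, NCLN by a log2 fold change of -0.92 (SE 0.16, adjusted p = 0.00143) and NOMO1 of -0.93 (SE 0.12, adjusted p = 0.000147), beside 7.49% of all genes. Under thapsigargin 5 of the 9 were lower, beside 9.00% of all genes, and 0 higher. They were TMEM147, NCLN, NOMO1, NOMO2 and NOMO3, with a list median of -0.87 beside 0.04 over all genes. TMCO1 of this list fell with thapsigargin in uninduced cells by 0.48 (SE 0.11, adjusted p = 0.0069), 1 of 9 lower beside 4.74% of all genes. The 3 NOMO genes, which make up 3 of the 5 lower at 100 ng/mL under thapsigargin, are near-identical copies. How reads were divided among them is therefore uncertain. TMEM208, of the SND route, passed in neither comparison of 100 with 0 ng/mL.

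Per kb of transcript, the members' levels without doxycycline under vehicle ran from 12.5 CPM per kb for EMC9 to 69.8 for EMC6, with 23.1 ± 1.3 for EMC10 (SD, n = 3), and at 100 ng/mL EMC10 was at 5.25 ± 0.68. These depend on the transcript chosen. EMC4 was at 50.8 CPM per kb of its main transcript and at 11.8 per kb of all its annotated exons. EMC10 spans positions 50476400 to 50490870 of chromosome 19 on the plus strand, EMC3 9962537 to 10011116 of chromosome 3 on the minus strand and EMC1 19215664 to 19251552 of chromosome 1 on the minus strand. Exons of EMC10 share 324 bases with FAM71E1 and those of EMC3 share 228 bases with EMC3-AS1, both on the opposite strand. The library kit keeps strand, but whether reads were counted by strand is not given in the sources used here.

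The promoters of 8 members, taken from RefSeq (GRCh38, a fixed window around the transcription start), were searched on both strands for motifs of the unfolded protein response. MMGT1 and EMC2 were not among them, EMC2 because members on chromosome 8 were left out. The letters GACGTG, TGACGTGG and TGATGNAA and the ERSE motif matched 0 of the 8, and they match 7.81%, 0.729%, 3.62% and 0.0769% of all promoters of that length. CCACG, which is also contained in ERSE, matched 3 of 8, those of EMC6, EMC8 and EMC9, beside 38.1% of all. No promoter of EMC1, EMC3 or EMC10 held any of the motifs searched.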

How the data were processed

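RNA-Seq (75-base single-end reads, KAPA stranded mRNA HyperPrep) covered 18 libraries. Reads had been aligned by the authors with STAR (VIPER pipeline), and raw counts per gene symbol were deposited. The submitters' processing notes name hg38, STAR and DESeq2. Versions, annotation and strand setting are not given in the sources used here. Columns were assigned to samples from the labels. The members and lists were chosen with earlier results of these data known.

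Counts of the groups compared were kept by filterByExpr (minimum count 10), TMM-normalized and tested with edgeR 4.0.16 (glmQLFit, glmQLFTest; R 4.3.3) with p-values adjusted by Benjamini-Hochberg across every gene in the fit and a threshold of 0.01. SE was computed as |log2 fold change| / sqrt(F). CPM were scaled by TMM over 18 libraries, and log2 CPM used a prior count of 2. All 10 members were named. From other lists up to 4 called genes with the smallest adjusted p were named for 100 against 0 ng/mL under vehicle and for thapsigargin without doxycycline (counts of 5 or fewer in full), and for likeness the 3 genes with the highest r. Thapsigargin-responsive and marker genes served as checks. Sequence features came from GENCODE release 29. Tests were checked on simulated data.

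All replicate pairs within groups differed beyond sampling noise (chi-square per degree of freedom 7.33 to 63.8). Replicate numbers come from the labels. For 10 against 0 ng/mL under thapsigargin, same-numbered libraries deviated together in each pair (r = 0.400, 0.344 and 0.468), and the numbers were taken as pairs there. Alternatives were DESeq2 1.42.0, RLE size factors, library totals alone, no filter, a fit of all 6 groups, a replicate block, a threshold of 0.05, each library left out, and a smooth trend (span 0.3) on GC content and length removed, which was added after seeing the data. GC content was known for 93.0% to 93.3% of genes tested. Precision was limited by the spread of 3 libraries more than by depth. Plots used matplotlib 3.10.9 (Python 3.11.15).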

Additional observations from a re-analysis of the deposited data

How the results depend on the processing

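The falls of EMC10 at 100 against 0 ng/mL passed the threshold under all 13 alternatives to each fit, with log2 fold changes of -2.27 to -2.08 under vehicle and -2.72 to -2.37 under thapsigargin, as did that of EMC3 under thapsigargin (-1.27 to -1.16). Of 78 alternative values for the 6 calls, 3 missed the threshold, each given in the report. Of 1430 alternative values, 59 changed sign, 0 of them called in either fit. Library totals alone moved the median of all genes by over 0.1 only in the interaction at 100 ng/mL, from 0.04 to -0.14. Main counts stand in brackets, genes called are added where they differed from these by over 1.5 times, and the cause was not tested.

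For 10 against 0 ng/mL under vehicle (0 members, 28 genes), DESeq2 called 1 member and 381 genes, no filter 1 and 623, GC and length removal (below, GC removal) 1 and 110, the replicate block 0 and 124, a threshold of 0.05 called 0 and 110, the fit of all 6 groups 0 and 3, and leaving out a library 0 to 2 members and 0 to 2743 genes. For 100 against 0 ng/mL under vehicle (1 member, 1203 genes), DESeq2 and no filter called 3 members, the fit of all 6 groups 2, GC removal 2 (2147 genes), a threshold of 0.05 called 3 (2063 genes), the block 1 (750 genes) and leaving out a library 1 to 2. For 100 against 10 ng/mL (1 member, 356 genes), DESeq2 called 2 (801 genes), all 6 groups 2 (628), the block 3 (1224), GC removal 2 (867), a threshold of 0.05 called 2 (836), no filter 1 (638) and leaving out a library 0 to 1 (0 to 496 genes). For 10 against 0 ng/mL under thapsigargin (0 members, 0 genes), DESeq2 called 1 (39 genes), no filter 0 (1), the block 1 (564) and the block with GC removal 1 (374). For 100 against 0 ng/mL under thapsigargin (3 members, 1512 genes), DESeq2 called 4 members (2331 genes), no filter 4, all 6 groups 3 (2641), GC removal 3 (2659), a threshold of 0.05 called 4 (3018), and leaving out a library gave 2 to 6 members and 763 to 3950 genes.

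For thapsigargin without doxycycline (1 member, 1611 genes), DESeq2 and no filter called 2, all 6 groups 0, the block 3 (3571 genes), GC removal 3 (2827), a threshold of 0.05 called 2 (3260), and leaving out a library gave 1 (731 to 1901 genes). At 10 ng/mL (0 members, 212 genes) the block called 1 (3620 genes), 0 were called by DESeq2 (1101 genes), no filter (529), all 6 groups (676), GC removal (749) and a threshold of 0.05 (1009), and leaving out a library gave 0 (28 to 494 genes). At 100 ng/mL (0 members, 29 genes) DESeq2 called 3 (732 genes), all 6 groups 3 (941), GC removal 2 (836), a threshold of 0.05 called 3 (494), the block 0 (4), library totals 0 (51), no filter 0 (299) and leaving out a library 0 to 4 (4 to 2568 genes). For the interaction at 100 ng/mL (0 members, 6 genes), DESeq2 called 1 (341 genes), 0 were called with the block (3 genes), RLE (14), library totals (20), no filter (86), all 6 groups (35), GC removal (195) and a threshold of 0.05 (149), and leaving out a library gave 0 to 3 (2 to 1286 genes). For the interaction at 10 ng/mL (0 genes) 0 members were called under all alternatives, with 3 genes by DESeq2 and at most 1 by the others. Where a library was left out, the group of 2 that remained was assumed to vary like the other.

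Same-numbered libraries deviated together in every pair, and correlated best with their own number, only for 10 against 0 ng/mL under thapsigargin. Elsewhere pairing was partial or absent.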
